A study of Homo sapiens with 11 samples.

Results

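The 10 genes described here are markers of the epithelial and the mesenchymal state of a cell, chosen by name: the adhesion genes CDH1, CDH2, CDH6 and EPCAM, the filament gene VIM, and the transcription factor genes SNAI1, SNAI2, ZEB1, ZEB2 and TWIST1. All 10 have a row in both count tables, which list 26485 gene symbols each. The RNA came from Caki-1-SR clone 1, a single sunitinib-resistant clone of Caki-1, a human clear cell renal cell carcinoma (ccRCC) line isolated from a skin metastasis. Sunitinib inhibits receptor tyrosine kinases, and the cells of every group were kept in 1 µM of it. The drug mix given to treated cells (ODC) combined a ruthenium compound (Rapta-C, 2 µM) with the EGFR inhibitor erlotinib (1 µM), the anti-diabetic metformin (1 µM) and a plant compound with anti-inflammatory action (parthenolide, 5 µM). The control cells (CTRL) did not receive these drugs, and the sources describe them both as untreated and as sham-treated. At 24 h there were 3 CTRL and 3 ODC libraries, and at 2 h 2 CTRL and 3 ODC libraries. The labels name this cell line alone, and a drug-sensitive parent line was not analysed here.

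Epithelial cells hold to each other through E-cadherin, the product of CDH1, and carry EpCAM, the product of EPCAM, on their surface. In an epithelial-mesenchymal transition they lower these proteins and turn on N-cadherin (CDH2) and the intermediate filament protein vimentin (VIM). The factors SNAI1, SNAI2, ZEB1, ZEB2 and TWIST1 drive this switch, and the SNAI and ZEB proteins repress CDH1 by binding E-box sequences in its promoter. Kidney epithelium is unusual in that the proximal tubule makes N-cadherin and cadherin-6 (CDH6) in place of much E-cadherin, and ccRCC, which arises there, often makes vimentin.

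The sequences just upstream of 2 members are shown because they belong to the most abundant member and to the one whose table entries hold an E-box of the kind that SNAI and ZEB proteins bind. They are the 250 bases before a start in RefSeq (GRCh38.p14), on the plus strand, chr10:17227991-17228240 for VIM and chr10:31318167-31318416 for ZEB1. Capitals mark the letters CACCTG or CAGGTG, which are the same site read on either strand.
VIM: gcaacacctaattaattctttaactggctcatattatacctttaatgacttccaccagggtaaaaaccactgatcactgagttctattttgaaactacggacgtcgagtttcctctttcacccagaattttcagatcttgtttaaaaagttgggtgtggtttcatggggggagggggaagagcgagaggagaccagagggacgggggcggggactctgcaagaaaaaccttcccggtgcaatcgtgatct
ZEB1: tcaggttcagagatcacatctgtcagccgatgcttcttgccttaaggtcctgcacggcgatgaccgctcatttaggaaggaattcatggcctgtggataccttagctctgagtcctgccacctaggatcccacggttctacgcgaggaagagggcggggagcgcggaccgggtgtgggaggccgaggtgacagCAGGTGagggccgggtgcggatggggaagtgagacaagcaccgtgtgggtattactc
The VIM stretch held no such site, and the ZEB1 stretch held 1, at position -57 from the start, where it also lies on exons of the antisense gene ZEB1-AS1. Of the 10 members, 4 matched a table of windows that run from 250 bases before to 50 bases after a start: VIM with 1 window, CDH2 with 2, ZEB1 with 7 and ZEB2 with 1. The site stood in 2 of the 7 ZEB1 windows and in none of the others. The second is the window at the MANE Select start of ZEB1, the start of its reference transcript (chr10:31318966-31319265), which held 3 such sites, at -242, -85 and 34 from that start. It is not printed, because the annotated ZEB1 gene begins upstream of it, at 31318495. Over all 35116 windows of 300 bases, 20.6% held at least 1 and 0.635% at least 3. A match is a description of the letters and says nothing about binding in these cells.

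The libraries held 17785229 to 20882856 counts at 24 h and 25782895 to 31118349 at 2 h, and 3 counts, taken as the floor, were worth 0.0943 to 0.168 CPM (counts scaled to the library total), a floor that covers counting error only. Levels are CPM after scaling of the library sizes by the TMM method, with the SD over the libraries of a group. The labels do not say that replicates came from separate cultures, so p-values measure only the spread between these libraries. Time point, count table and the month given in the library titles coincide and cannot be told apart, and the labels do not say which step the month dates. The renal marker PAX8, at 538 ± 114 CPM (SD, n = 3), was present in CTRL at 24 h, whereas CA9, HNF4A and PAX2 had no count there. CTRL replicate 1 at 2 h stood apart: 16840 genes had a count in it, against 15761 to 15973 in the other libraries at 2 h, and 129 of 26485 genes had at least 10 counts in it and at most 3 in each of the others. These included 7 of 28 genes of an epithelial programme list, among them KRT19 with 48 counts, and the fibroblast gene DCN with 73. The fibroblast collagens COL1A2 and COL3A1 had 971 and 1081 counts in it and at most 11 in any other library at 2 h.

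In control cells at 24 h the mesenchymal members were expressed and the epithelial members CDH1 and EPCAM were the lowest of the 10. EPCAM had a higher mean in CTRL at 2 h, where it passed the mean of the mesenchymal member ZEB2, though the libraries of the 2 genes overlapped. Compared per kilobase of the MANE Select transcript, VIM had the highest level in CTRL at 24 h, 1575 ± 94.5 CPM per kb (SD, n = 3). CDH2 followed with 47.8 ± 3.53 CPM per kb (SD, n = 3). EPCAM and CDH1 were the lowest, at 0.253 ± 0.0862 and 0.0624 ± 0.0607 CPM per kb (SD, n = 3).

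Between these lay the transcription factors and CDH6. SNAI1 was at 7.64 ± 1.03 CPM per kb, ZEB1 at 6.07 ± 0.549, TWIST1 at 5.44 ± 0.517 and SNAI2 at 4.39 ± 1.09 (SD, n = 3 each). CDH6 was at 4.95 ± 3.49 CPM per kb (SD, n = 3), and its libraries spanned 1.08 to 7.87. In this order from SNAI1 through ZEB1, TWIST1 and CDH6 to SNAI2, the library ranges of each gene and the next overlapped. ZEB2, at 0.801 ± 0.162 CPM per kb (SD, n = 3), lay below all of them and above EPCAM without overlap. With the length of all exons of a gene in place of the MANE Select transcript, ZEB1 and TWIST1 changed places, at 4.17 and 4.44 CPM per kb, and the rest of the order stayed.

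In CTRL at 2 h the order differed in its upper part, and lower down EPCAM and ZEB2 changed places. VIM was again first, at 1575 ± 4.22 CPM per kb (SD, n = 2), followed by CDH6 at 35.7 ± 14.6, SNAI1 at 29.4 ± 15.7 and CDH2 at 26.1 ± 1.07 (SD, n = 2 each), whose ranges overlapped. ZEB1 (6.55 CPM per kb), TWIST1 (3.72), SNAI2 (2.53), EPCAM (1.49), ZEB2 (0.532) and CDH1 (0.0939) came after them. EPCAM was at 2.46 CPM per kb in CTRL replicate 1, the library that stood apart, and at 0.521 in replicate 2. The latter lies within the range of ZEB2, 0.458 to 0.607.

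**Figure D1:**
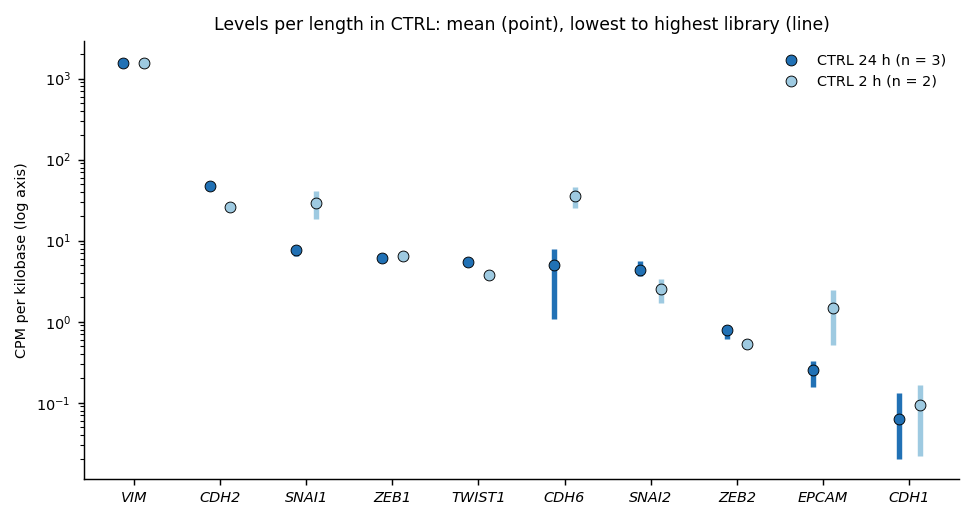
Level of each member in CTRL cells, in CPM per kilobase of the MANE Select transcript on a log axis, with points for the mean of the libraries at 24 h (n = 3) and at 2 h (n = 2) and lines from the lowest to the highest library. VIM lies at 1575 at both time points, CDH1 and EPCAM lie lowest at 24 h, and CDH6 and SNAI1 are the members whose points at 2 h lie furthest above those at 24 h beside EPCAM.

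The comparison of ODC with CTRL at 24 h asked whether the drug mix moved these markers. Of the 8 members that passed the filter on low counts, 0 had an adjusted p under 0.05 in edgeR's quasi-likelihood test, beside 0.189% of the 12689 genes tested (21 higher, 3 lower). DESeq2 and the likelihood ratio test of edgeR also called 0 members, beside 2.98% and 3.16% of these genes. At an unadjusted p under 0.05 there were 2 members, VIM and SNAI1, beside 12.2% of all genes. With a fold of at least 2 added, 0 members remained, beside 2.35%. The libraries of the 2 groups did not overlap for the same 2 members, beside 17.9% of all genes. The log2 fold change was below 0 for 7 members and above 0 for 1, with a median of -0.20, against 0.00089 over all genes tested. CDH1 and EPCAM did not pass the filter at 24 h.

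VIM encodes vimentin, the filament protein that serves as the standard mesenchymal marker. It lies on chromosome 10 (17228241 to 17237593, plus strand, 10 exons, hg38). At 24 h it was at 3396, 3593 and 3186 CPM in the CTRL libraries and at 2451, 2938 and 2975 CPM in the ODC libraries. Every ODC library lay below every CTRL library. The means were 3392 ± 204 and 2788 ± 292 CPM (SD, n = 3 each), and the log2 fold change was -0.27 (SE 0.11, 95% interval -0.52 to -0.013, unadjusted p = 0.0419, adjusted p = 0.384 with edgeR). In bulk libraries fewer cells with a transcript and less of it per cell cannot be told apart.

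At 2 h the order of the groups for VIM was the other way round. The CTRL libraries were at 3398 and 3385 CPM and the ODC libraries at 3476, 3693 and 3731, so that every ODC library lay above every CTRL library. Its log2 fold change there was 0.098 (SE 0.082, 95% interval -0.090 to 0.29, adjusted p = 1.00 with edgeR). The antisense gene VIM-AS1 shares 641 exonic bases with VIM. The setting for strand in the counting is not given in the sources used here, so if strand was not used, reads of the 2 genes cannot be told apart. The same limit holds for a second opposite-strand gene at VIM (342 shared exonic bases). It also holds for such genes at CDH1 (212), CDH2 (136) and CDH6 (125).

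CDH2 encodes N-cadherin, the calcium-dependent adhesion protein that cells take up in place of E-cadherin, and lies on chromosome 18 (27950966 to 28177130, minus strand, 16 exons). At 24 h the CTRL libraries were at 176, 196 and 204 CPM and the ODC libraries at 156, 181 and 226. The ODC libraries enclosed the range of the CTRL libraries. CDH2 had a log2 fold change of -0.017 (SE 0.14, 95% interval -0.34 to 0.30, adjusted p = 0.978), which limits a difference to between 0.79-fold and 1.23-fold. At 2 h CDH2 was at 101.8 and 107.8 CPM in CTRL and at 103.5, 110.9 and 127.2 in ODC, with a log2 fold change of 0.12 (SE 0.11).

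CDH6 encodes cadherin-6, also called kidney cadherin, an adhesion protein of the fetal kidney and the proximal tubule, and lies on chromosome 5 (31193686 to 31329146, plus strand, 12 exons). At 24 h it was at 67.2, 50.3 and 9.25 CPM in the CTRL libraries and at 22.3, 29.1 and 6.25 CPM in the ODC libraries. The third library of each group was the lowest by a wide margin, and the groups overlapped. The ratio of the highest to the lowest library was 7.26 in CTRL and 4.65 in ODC. Of the genes tested, 0.331% and 0.898% spanned at least as much in these groups, where the median gene spanned 1.24 and 1.29.

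The log2 fold change of CDH6 at 24 h was -1.12 (SE 0.71, 95% interval -2.76 to 0.52, adjusted p = 0.586). It was the largest of the 8 members in size, and 97.9% of all genes tested had a smaller one. With 1 library left out it ranged from -1.60, without CTRL replicate 3, to -0.63, without CTRL replicate 1, and it was -0.70 without ODC replicate 3. The library numbers of CTRL and ODC alternate at 24 h, though no label names a pairing. With neighbouring numbers taken as pairs, CDH6 in ODC was 0.331, 0.578 and 0.675 times its CTRL partner, and the fit with this pairing as a block gave -1.01 (SE 0.19, adjusted p = 0.0335). At 2 h CDH6 was at 393 and 217 CPM in CTRL and at 381, 222 and 417 in ODC, with overlap and a log2 fold change of 0.16 (SE 0.31).

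CDH1 encodes E-cadherin, the adhesion protein that defines epithelial junctions, and lies on chromosome 16 (68737292 to 68835537, plus strand, 16 exons). At 24 h the CTRL libraries held 2, 12 and 3 counts and the ODC libraries 4, 12 and 0. The 0 allows a level of up to 0.146 CPM. At 2 h the CTRL libraries held 21 and 3 counts and the ODC libraries 0, 5 and 5. No library passed 1 CPM for CDH1, and a difference between ODC and CTRL was not detectable at this depth at either time point.

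EPCAM encodes an epithelial cell adhesion molecule used to recognise carcinoma cells, and lies on chromosome 2 (47369311 to 47387020, plus strand, 9 exons). At 24 h it held 5, 8 and 9 counts in CTRL and 9, 10 and 10 in ODC. At 2 h it held 100 and 23 counts in CTRL and 21, 27 and 19 in ODC. The library with 100 counts is CTRL replicate 1, the one that stood apart, which held the most EPCAM and the most CDH1 of all 11 libraries. For EPCAM the log2 fold change at 2 h was -1.66 (SE 0.58, 95% interval -3.00 to -0.32, unadjusted p = 0.0211, adjusted p = 1.00 with edgeR). Without CTRL replicate 1 it was -0.15, and without CTRL replicate 2 it was -2.38 (adjusted p = 0.0407).

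Fibroblast markers were also high as a sum in CTRL replicate 1 at 2 h, whereas the endothelial and leukocyte sums in CTRL were close to those in ODC. Single genes of these 2 lists did stand out in that library. VWF, 1 of 7 endothelial markers, and LYZ, 1 of 6 leukocyte markers, had at least 10 counts in it. Each had at most 3 in every other library at 2 h, as 0.487% of all genes did. Of the endothelial markers 5, and of the leukocyte markers 2, were highest there among the 11 libraries. At 2 h the endothelial sum was 0.877 to 1.71 CPM in CTRL and 0.708 to 1.63 CPM in ODC. The leukocyte sum was 13.6 to 16.1 and 13.3 to 16.5 CPM. COL1A1, among the fibroblast markers, was present in every group, with means of 101 to 183 CPM. The summed level of 8 fibroblast markers was 335.3 CPM in CTRL replicate 1 at 2 h, 143.0 CPM in replicate 2 and 164.5 to 176.4 CPM in ODC, and 6 of the 8 averaged over 1 CPM in CTRL at 2 h against 2 in every other group. At 24 h the same sum was 65.3 to 128.1 CPM in CTRL and 91.2 to 124.5 CPM in ODC. The sum of 7 endothelial markers was at most 1.80 CPM and that of 6 leukocyte markers at most 16.5 CPM in any library, mostly from CD68. The part of these genes in the EPCAM value was not tested.

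**Figure D2:**
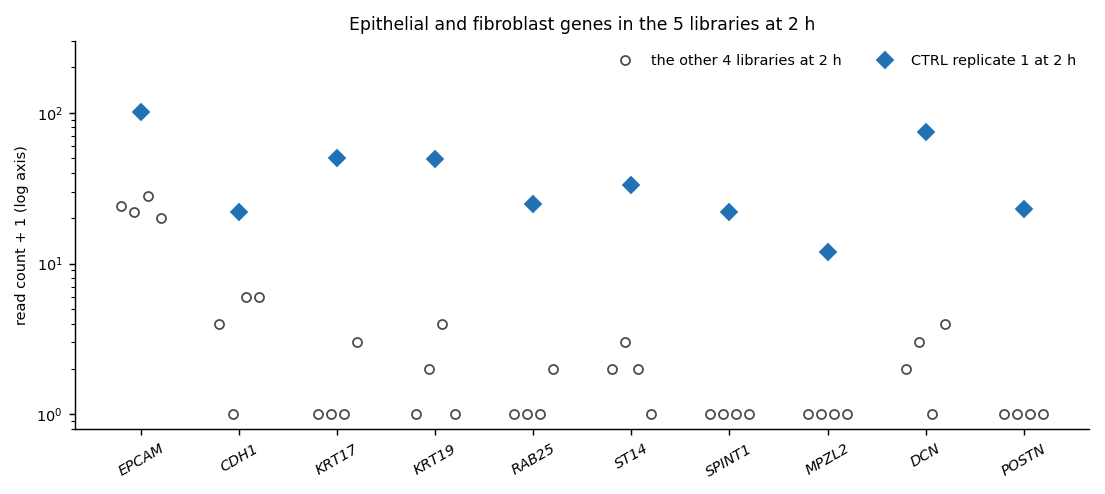
Read counts (plus 1, log axis) of EPCAM, CDH1 and epithelial and fibroblast genes from the lists that had at least 10 counts in CTRL replicate 1 at 2 h and at most 3 in each other library at 2 h. The diamond is CTRL replicate 1 and the circles are the other 4 libraries at 2 h, and EPCAM is at 100 counts in the former and 19 to 27 in the latter.

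**Figure D3:**
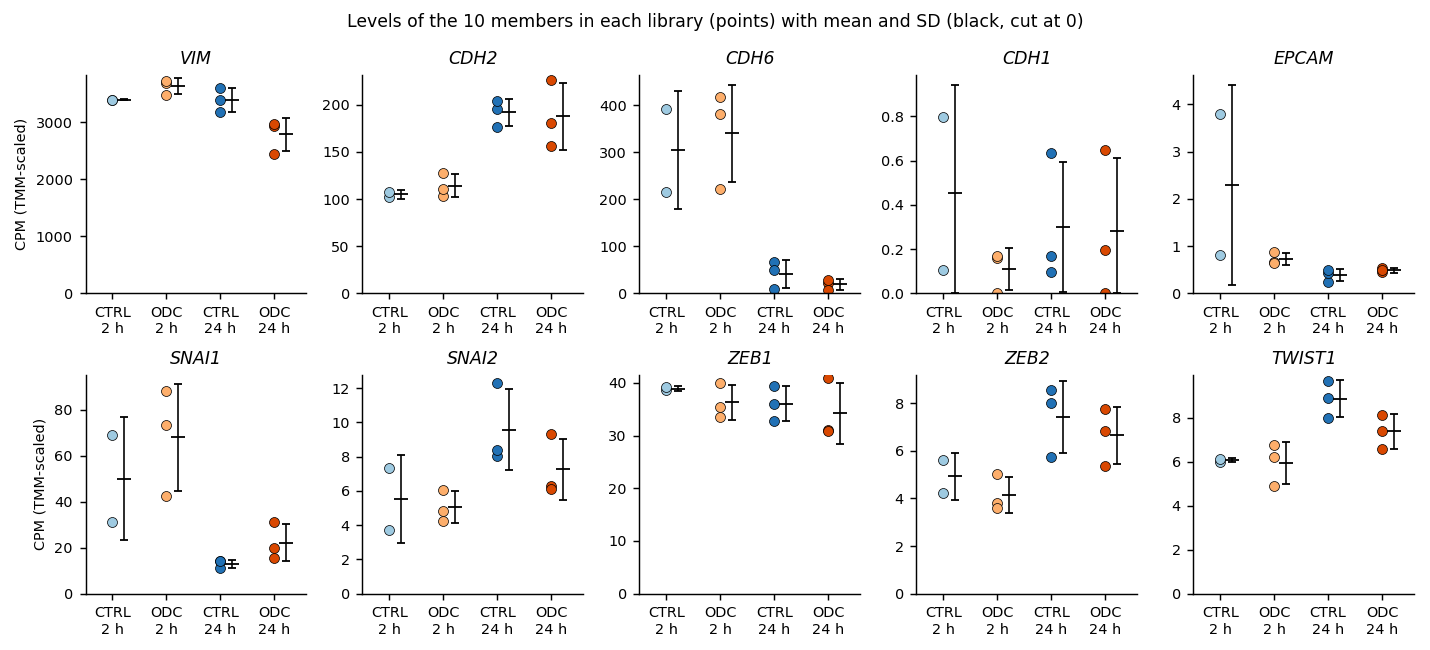
Level of each of the 10 members in every library, in TMM-scaled CPM on axes that start at 0, by group, with the mean and SD of the group as bars. VIM in ODC at 24 h lies between 2451 and 2975 CPM and below all CTRL libraries, and CDH6 and SNAI1 lie higher at 2 h than at 24 h in both arms.

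Among the transcription factors, SNAI1 was the member with a positive log2 fold change at 24 h. SNAI1 encodes Snail, a zinc finger repressor of CDH1, and lies on chromosome 20 (49982980 to 49988886, plus strand, 3 exons). At 24 h it was at 14.0, 11.01 and 14.1 CPM in CTRL and at 20.0, 15.4 and 31.3 CPM in ODC. Every ODC library lay above every CTRL library, with means of 22.3 ± 8.18 and 13.0 ± 1.75 CPM (SD, n = 3 each). SNAI1 had a log2 fold change of 0.79 (SE 0.25, 95% interval 0.21 to 1.36, unadjusted p = 0.0137, adjusted p = 0.261 with edgeR), a fold of 1.72. Without ODC replicate 3, the highest library, it was 0.47.

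With the pairing of neighbouring library numbers, the ODC to CTRL ratios of SNAI1 were 1.43, 1.40 and 2.23, and the block fit gave 0.74 (SE 0.15, adjusted p = 0.0409). CDH6 and SNAI1 were the 2 of 8 members called in the block fit, beside 5.41% of all genes, and these calls rest on a pairing that no label states. At 2 h SNAI1 was at 31.2 and 69.0 CPM in CTRL and at 73.4, 42.6 and 88.1 in ODC. These groups overlapped, and the log2 fold change was 0.44 (SE 0.37, 95% interval -0.40 to 1.29).

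SNAI2 encodes Slug, a close relative of Snail, and lies on chromosome 8 (48917598 to 48921429, minus strand, 3 exons). At 24 h it was at 12.3, 8.05 and 8.36 CPM in CTRL and at 6.29, 6.13 and 9.32 in ODC. One ODC library lay within the CTRL range and the other two below it, and the log2 fold change was -0.39 (SE 0.24, adjusted p = 0.570). At 2 h it was at 7.33 and 3.72 CPM in CTRL and at 4.24, 6.05 and 4.85 in ODC (log2 fold change -0.13, SE 0.30).

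ZEB1 and ZEB2 encode zinc finger and homeobox repressors of CDH1 that are held down by microRNAs of the miR-200 family in epithelial cells. ZEB1, on chromosome 10 (31319216 to 31529804, plus strand, 9 exons), was at 39.3, 32.8 and 36.1 CPM in CTRL and at 31.0, 30.8 and 40.9 in ODC at 24 h. The ODC libraries lay both below and above the CTRL libraries, and the log2 fold change was -0.060 (SE 0.14, 95% interval -0.38 to 0.26). At 2 h ZEB1 was at 38.6 and 39.2 CPM in CTRL and at 40.0, 33.5 and 35.5 in ODC. Across all 11 libraries ZEB1 stayed between 30.8 and 40.9 CPM.

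ZEB2, on chromosome 2 (144384081 to 144520119, minus strand, 10 exons), was at 8.54, 7.996 and 5.72 CPM in CTRL and at 5.36, 6.83 and 7.76 in ODC at 24 h. The groups overlapped, with a log2 fold change of -0.14 (SE 0.22, adjusted p = 0.850). At 2 h ZEB2 was at 5.62 and 4.24 CPM in CTRL and at 5.03, 3.83 and 3.597 in ODC. The antisense gene ZEB2-AS1 shares 181 exonic bases with ZEB2, with the same limit on strand as for VIM.

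TWIST1 encodes a basic helix-loop-helix factor of the mesoderm, and lies on chromosome 7 (19115468 to 19117636, minus strand, 2 exons). At 24 h it was at 8.01, 9.69 and 8.92 CPM in CTRL and at 7.42, 6.57 and 8.15 in ODC. ODC was the higher in 1 of the 9 pairs of libraries, and the log2 fold change was -0.25 (SE 0.16, adjusted p = 0.584). At 2 h TWIST1 was at 6.00 and 6.14 CPM in CTRL and at 6.22, 6.76 and 4.89 in ODC.

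At 2 h, 9 of the 10 members passed the filter, with 4 log2 fold changes above 0 and 5 below and a median of -0.029, against -0.0060 over all genes. No member had an adjusted p under 0.05 with edgeR, DESeq2 or the likelihood ratio test, beside 0% of 13332 genes with edgeR's quasi-likelihood test, 0.0075% with DESeq2 and 0.0375% with the likelihood ratio test. EPCAM was the 1 member with an unadjusted p under 0.05 and the 1 with a fold of at least 2 besides, against 2.34% and 0.308% of all genes. VIM was the 1 tested member whose groups did not overlap, against 15.2%.

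**Figure D4:**
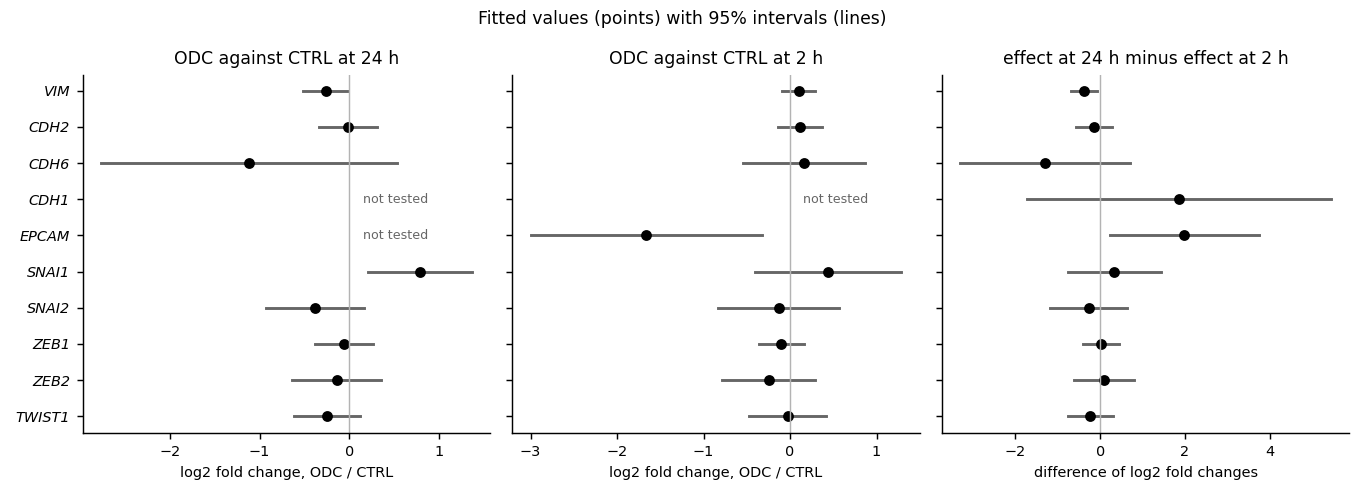
Fitted log2 fold changes of ODC against CTRL at 24 h and at 2 h and their difference (effect at 24 h minus effect at 2 h), with 95% intervals, for the members that passed the filter in each fit. The intervals of VIM and SNAI1 at 24 h, of EPCAM at 2 h and of VIM and EPCAM in the difference do not reach 0.

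Whether the effect of the drug mix on a marker differed between 24 h and 2 h was tested over the 11 libraries together, and all 10 members passed the filter there. With edgeR's quasi-likelihood test, its likelihood ratio test and DESeq2, 0 members had an adjusted p under 0.05, beside 0.015% of 13333 genes with the first, 0.278% with the second and 0.291% of the genes to which DESeq2 gave an adjusted p. At an unadjusted p under 0.05 there were 2, VIM and EPCAM, beside 5.93%, and EPCAM also passed a fold of 2, beside 1.92%. For VIM the difference of log2 fold changes was -0.38 (SE 0.14, 95% interval -0.69 to -0.074, unadjusted p = 0.0192, adjusted p = 0.698). For EPCAM it was 1.99 (SE 0.81, adjusted p = 0.762), and 0.48 without CTRL replicate 1 at 2 h. CDH6 had -1.30 (SE 0.92), SNAI1 0.33 (SE 0.50) and CDH1, on 0 to 21 counts a library, 1.85 (SE 1.64). The other 5 members lay between -0.27 for SNAI2 and 0.087 for ZEB2. The median over the members was -0.063, against 0.0025 over all genes.

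Levels were also set side by side between the time points within each arm. In CTRL, 7 of the 10 members did not overlap between 2 h and 24 h, beside 50.9% of 13333 genes, and in ODC 7 did not, beside 47.8%. CDH6 had a mean of 305 ± 125 CPM (SD, n = 2) in CTRL at 2 h and 42.2 ± 29.8 (SD, n = 3) at 24 h, a ratio of 7.21 that 0.833% of genes reached. In ODC the CDH6 means were 340 ± 103 and 19.2 ± 11.7 CPM (SD, n = 3 each). SNAI1 was 3.85 times as high at 2 h as at 24 h in CTRL, a ratio that 2.14% of genes reached, and 3.06 times in ODC.

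The other members differed in direction. CDH2, SNAI2, ZEB2 and TWIST1 were lower at 2 h than at 24 h in CTRL, with ratios of 0.546, 0.577, 0.665 and 0.684, and the last of these overlapped in ODC. ZEB1 overlapped in both arms, with ratios of 1.08 in CTRL and 1.06 in ODC. VIM had a ratio of 1.00 in CTRL, with overlap, and of 1.30 in ODC, where every library at 2 h lay above every library at 24 h. EPCAM was also higher at 2 h without overlap in both arms, with a ratio of 5.89 in CTRL, where CTRL replicate 1 holds most of its counts, and means of 0.724 and 0.489 CPM in ODC at 2 h and 24 h. CDH1 overlapped in both arms. No test was made of these ratios, because hours, table and month cannot be told apart.

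Genes related to the members were followed in lists. At 24 h edgeR's quasi-likelihood test called 0 of their genes at an adjusted p under 0.05, whereas DESeq2 called 9, the likelihood ratio test 10 and the block fit 16. Over all genes tested the first called 0.189%, DESeq2 2.98%, the likelihood ratio test 3.16% and the block fit 5.41%. The values that follow are those of the first unless another is named, and counts at an unadjusted p under 0.05 stand beside 12.2% of all genes, 7.2% higher and 5.04% lower in ODC. Of 18 other cadherins and catenins, the adhesion proteins and their links to actin, 8 were tested at 24 h. In the unpaired fit 0 had an adjusted p under 0.05 and 1 an unadjusted one, and 5 had a log2 fold change above 0 and 3 below, with a median of 0.047. CDH13, a cadherin anchored to the membrane by a lipid, was at 43.5, 38.5 and 38.0 CPM in CTRL and 27.4, 19.0 and 31.3 in ODC, without overlap (log2 fold change -0.61, SE 0.18, unadjusted p = 0.00863, adjusted p = 0.223). CDH16, the kidney-specific cadherin, was at 3.03, 2.44 and 0.729 CPM in CTRL and 6.98, 10.0 and 0.878 in ODC (log2 fold change 1.53, SE 0.78, and 0.92 without ODC replicate 2). The lowest library of each group was the one in which CDH6 was lowest. CDH24 had 0.45 (SE 0.27) and JUP, the gene of plakoglobin, -0.26 (SE 0.52). CDH13 and CDH16 were the 2 members of this list called in the block fit.

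Tight junction and desmosome genes seal and fasten epithelial sheets. Of 29 in the tables, 19 were tested at 24 h, of which 0 had an adjusted p under 0.05 and 4 an unadjusted one. The log2 fold change was above 0 for 14 and below for 5, with a median of 0.20. CLDN2, a claudin that forms cation pores in the proximal tubule, was at 54.4, 34.4 and 27.4 CPM in CTRL and 22.2, 14.0 and 14.8 in ODC (log2 fold change -1.17, SE 0.28, unadjusted p = 0.00306, adjusted p = 0.154). DSC3, a desmosomal cadherin, held 4, 7 and 11 counts in CTRL and 29, 19 and 35 in ODC (log2 fold change 1.84, SE 0.43, adjusted p = 0.146). PKP4 had 0.30 (SE 0.093) and CLDN12 -0.21 (SE 0.15). CLDN2 and DSC3 were the 2 called in the block fit. Over the alternatives to the unpaired fit described at the end, the block included, CLDN2 was called in 3 of 17 and DSC3 in 2 of 16.

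The epithelial programme list held keratins, protease inhibitors of the epithelial surface and the factors that maintain them. Of its 28 genes 15 were tested at 24 h and 0 had an adjusted p under 0.05. At an unadjusted p under 0.05 there were 6, all lower in ODC, beside 5.04% of all genes, and the median was -0.22, with 7 genes above 0 and 8 below. KRT18, a keratin of simple epithelium, was at 681.6, 519.6 and 497.5 CPM in CTRL and 307.6, 315.7 and 405.1 in ODC (log2 fold change -0.71, SE 0.15, unadjusted p = 0.00177, adjusted p = 0.128). KRT8, its filament partner, chosen after its values were seen, had -0.62 (SE 0.17, adjusted p = 0.202). At 2 h KRT18 and KRT8 had log2 fold changes of -0.021 (SE 0.084) and 0.075 (SE 0.091). SPINT2, an inhibitor of epithelial serine proteases, was at 10.1, 11.9 and 9.53 CPM in CTRL and 6.00, 6.08 and 6.34 in ODC (log2 fold change -0.76, SE 0.15, adjusted p = 0.108). At 24 h ELF3, an epithelial ETS factor, had 1.08 (SE 0.82), and CD24 had 0.84 (SE 0.66). Both rested on single libraries: ELF3 had 0.21 without ODC replicate 2 and 2.25 without CTRL replicate 2, and CD24 had 0.197 and 1.496. The block fit called 5 of the 15, 1 higher (ELF3) and 4 lower (KRT18, SPINT2, KRT7 and MAL2). Over the 17 alternatives, KRT18 was called in 4, SPINT2 in 3, KRT8 in 2 and ELF3 in 1.

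Of 28 mesenchymal markers 22 were tested at 24 h, 11 above and 11 below 0, with a median of 0.069. An adjusted p under 0.05 was reached by 0 and an unadjusted one by 5. ACTA2, smooth muscle actin, was at 10.8, 10.7 and 8.47 CPM in CTRL and 19.0, 14.5 and 15.2 in ODC (log2 fold change 0.71, SE 0.17, adjusted p = 0.148). NT5E, the ectonucleotidase CD73, was at 259.3, 166.9 and 177.3 CPM in CTRL and 78.2, 40.6 and 144.6 in ODC (log2 fold change -1.18, SE 0.40, adjusted p = 0.279), and GNG11 had -0.40 (SE 0.12). ACTA2 was called in 3 of the 17 alternatives, the block included. The block fit called 3 of the 22, 2 higher, among them ACTA2, and 1 lower, FN1, the gene of fibronectin. FN1 was at 4749, 8371 and 1975 CPM in CTRL and 3713, 4463 and 1461 in ODC, and had -0.63 (SE 0.54, adjusted p = 0.706) in the unpaired fit.

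The list of other transition factors and corepressors held 24 genes, of which 19 were tested at 24 h. Of these 6 lay above 0 and 13 below, with a median of -0.095. Here too 0 had an adjusted p under 0.05, and 4 had an unadjusted one. ID1, an inhibitor of basic helix-loop-helix factors, was at 47.0, 27.3 and 48.5 CPM in CTRL and 115.2, 93.3 and 119.7 in ODC (log2 fold change 1.43, SE 0.22, unadjusted p = 0.00016, adjusted p = 0.0655). ID2, its relative, had 1.59 (SE 0.38, adjusted p = 0.156). SOX9 had -0.92 (SE 0.32). The block fit called ID1 and ID2, both higher in ODC. Over the 17 alternatives ID1 was called in 5 and ID2 in 4. These are refits of the same counts that called more genes in all, 92 to 686 against 24, and are not independent support. With 1 library left out neither was called, and the lowest adjusted p with edgeR's quasi-likelihood test was 0.0612 for ID1 and 0.162 for ID2.

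Of 16 kidney and ccRCC markers 10 were tested at 24 h, 6 above and 4 below 0, with a median of 0.085, 0 with an adjusted and 3 with an unadjusted p under 0.05. LHX1, a factor of the developing nephron, was at 28.2, 52.5 and 34.9 CPM in CTRL and 10.3, 15.7 and 15.7 in ODC (log2 fold change -1.46, SE 0.26, adjusted p = 0.0923). GGT1, a brush border enzyme, had 0.75 (SE 0.26, and 0.49 without ODC replicate 2), CD70 0.36 (SE 0.13) and MME -0.35 (SE 0.19). The block fit called LHX1 and GGT1, and over the 17 alternatives LHX1 was called in 5 and GGT1 in 1. At 2 h and in the difference of effects, 0 genes of these lists had an adjusted p under 0.05 with edgeR's quasi-likelihood test, its likelihood ratio test or DESeq2. At an unadjusted p under 0.05 there were 1 mesenchymal marker and 2 other transition factors at 2 h, beside 2.34% of all genes. At 2 h the median log2 fold changes lay between -0.090, for the epithelial programme, and 0.079, for the other transition factors.

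**Figure D5:**
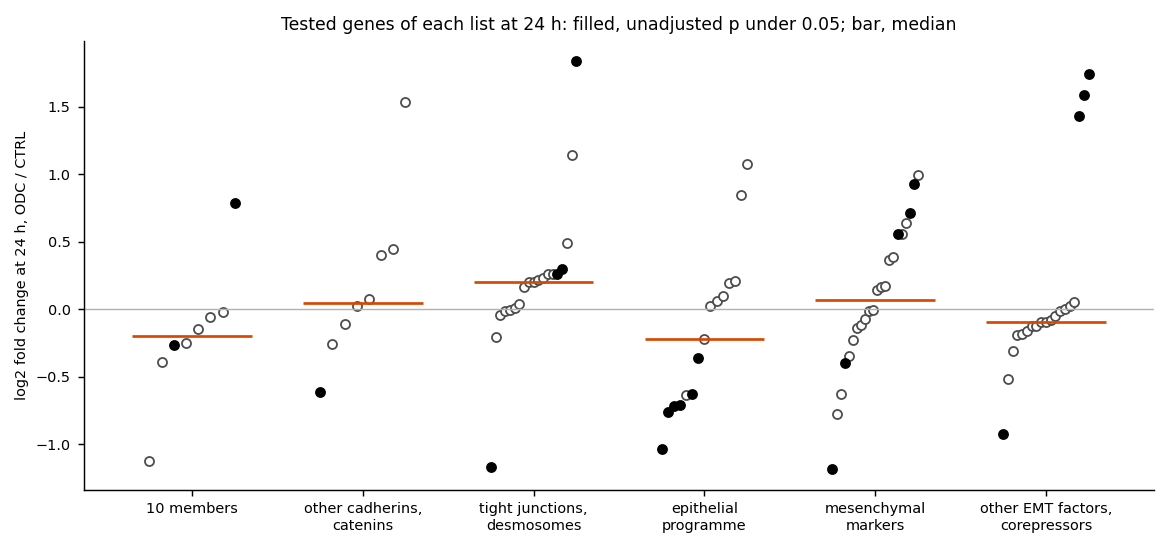
Log2 fold change of ODC against CTRL at 24 h for every tested gene of the members and of the 5 lists of related genes, with filled points for an unadjusted p under 0.05 and bars for the list medians. The members' median is -0.20, the epithelial programme has 6 filled points below 0 and none above, and the medians of the other lists lie between -0.095 and 0.20.

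The genes whose pattern was most like that of the 3 members with the highest level per kilobase in CTRL at 24 h, VIM, CDH2 and SNAI1, were found by Pearson's r of log2 CPM over the 11 libraries after the mean of each time point was subtracted. For VIM they were FBXL14 (r = 0.936), LDOC1 (0.933) and PDCL (0.929). For CDH2 they were RAB5A (0.937), SIRT6 (0.929) and ADO (0.922), and for SNAI1 they were UBL3 (0.943), OSGIN1 (0.941) and PIGU (0.939). These are the highest of 13333 genes, the points share library and depth, and r is given as a description. Among the members themselves r was highest for CDH1 with EPCAM (0.686), where both are highest in CTRL replicate 1 at 2 h, and for ZEB1 with ZEB2 (0.574), and lowest for CDH1 with SNAI1 (-0.723), where CDH1 rests on 0 to 21 counts.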

How the data were processed

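The authors prepared stranded mRNA libraries, sequenced single-end reads of 100 bases, aligned them to the UCSC hg38 genome with STAR, and counted reads per gene with HTSeq. The submitters' processing notes give STAR 2.7.0f and HTSeq 0.9.1, and the paper's methods name another STAR release. The annotation and the strand setting of the counting are not given in the sources used here. The values the authors deposited are raw read counts for 26485 gene symbols, 1 table per time point, with no normalization.

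ODC was compared with CTRL within each time point with edgeR 4.0.16 in R 4.3.3 (earlier quasi-likelihood method, TMM, filterByExpr at its settings of 10 for the count and 15 for the total, two-sided, Benjamini-Hochberg adjustment over all genes tested). The SE is the size of the log2 fold change divided by the root of F. The 2 effects were compared in a joint fit of all 11 libraries. Lengths and positions come from GENCODE MANE Select transcripts, and upstream sequences from RefSeq. The scripts were tested on simulated counts. Replicate libraries differed by more than sampling noise (chi-square per gene of 18.7 to 58.0).

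At 24 h the labels share no replicate number between groups, but library numbers alternate between them. Libraries with neighbouring numbers deviated together from their group means (r = 0.242, 0.611 and 0.473 over genes), so a fit with these pairs as a block is given where it changes a call. No label states this pairing, it was taken up from these same counts, and other pairs of libraries are not given for contrast. The block's adjusted p-values are therefore not independent support for a call. For the other tested members they lay between 0.131 for VIM and 0.851 for CDH2. What the pairs share is not stated.

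Alternatives covered the filter, the scaling, the test (also DESeq2 1.42.0), the joint fit, the block and leaving out each library. The genes named are the members, the 2 genes of each list with the smallest p at 24 h in each direction, and genes most like a member in pattern. FN1, KRT7, KRT8 and MAL2, the genes of CTRL replicate 1 at 2 h and the single renal markers fall outside the first 2 rules and were named after their values were seen. A few genes that this rule names are left out of the text. The members and lists were chosen with earlier results of these data known. Plots used matplotlib 3.10.9 under Python 3.11.15.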

Additional observations from a re-analysis of the deposited data

How the results depend on the processing

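Values are counts of genes with an adjusted p under 0.05, then log2 fold changes. At 24 h, 24 genes were called, and 92 when all genes with a count entered, 401 with the likelihood ratio test, 378 with DESeq2, 186 with a joint fit of all libraries and 686 with the replicate block, which called 2 members (CDH6 and SNAI1) where the unpaired fit and every other setting called 0. Leaving out 1 library gave 2 to 70 genes at 24 h, 2 without CTRL replicate 1, 3 without ODC replicate 1, 4 without CTRL replicate 2, 12 without CTRL replicate 3 and 70 without ODC replicate 3. At 2 h, where 0 genes were called, the likelihood ratio test gave 5, DESeq2 gave 1, and leaving out 1 library gave 0 to 42 genes and 0 to 1 members, the 42 and the 1 (EPCAM) without CTRL replicate 2, where the lone CTRL library is assumed to vary like the ODC libraries. For the difference of effects, 2 genes were called, and 7 when all genes with a count entered, 37 with the likelihood ratio test, 38 with DESeq2 and 0 to 4 with 1 library left out, 4 without CTRL replicate 3 at 24 h, and 0 members under any of 20 settings. Why these settings differ was not tested, except that leaving out a library leaves fewer samples.

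Of the members' values under these alternatives, 130 of 136 at 24 h, 128 of 134 at 2 h and 187 of 197 for the difference kept their direction and their side of the threshold. Directions turned only with 1 library left out, and the members' values then spanned, at 24 h, -0.16 to 0.096 for CDH2 and -0.20 to 0.0043 for ZEB1. At 2 h they spanned -0.20 to 0.66 for CDH6, -0.012 to 1.13 for SNAI1, -0.53 to 0.45 for SNAI2 and -0.13 to 0.092 for TWIST1. Of list genes, which these counts leave out, JUP spanned -0.92 to 0.34 at 24 h and KRT18 -0.063 to 0.011 at 2 h. In the difference the members' values spanned -0.17 to 3.01 for CDH1, -0.36 to 0.79 for SNAI1, -0.84 to 0.13 for SNAI2, -0.12 to 0.0998 for ZEB1 and -0.13 to 0.27 for ZEB2. VIM at 24 h ranged from -0.32 to -0.18 and SNAI1 from 0.47 to 0.98 over all alternatives. The replicate block changed no other member's call. Low counts limit CDH1 and EPCAM.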
